A study of Homo sapiens with 6 samples.

Results

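The zinc finger genes of chromosome 19 were compared between DLD1 parental cells and DLD1 p85β KR-AA cells. The members are the protein-coding genes annotated on chromosome 19 whose symbol is ZNF followed by a number and, in some, a letter. The rule uses names and positions only and gave 246 genes, all of them present in the deposited table of 58884 genes. DLD1 is a colorectal cancer cell line that carries a helical domain mutation of PIK3CA, the gene of the catalytic PI3K subunit p110α. In p85β KR-AA cells, the endogenous PIK3R2 gene, which encodes the regulatory subunit p85β, carries the K477A and R478A changes in a predicted nuclear localization signal, and the parental cells do not. The study used the comparison to ask whether p85β in the nucleus affects gene expression. RNA of each genotype was sequenced in 3 libraries, with no other treatment, and which knock-in clone each mutant library came from is not given in the sources used here. The title and genotype of all 3 mutant libraries give K477A and R478A, whereas the source names of replicates 2 and 3 give R479A and R480A for the second change.

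Most of these genes belong to the KRAB zinc finger family, the largest family of transcription factors in the human genome, which grew by tandem duplication and lies in clusters along chromosome 19. Each protein binds DNA through a row of C2H2 zinc fingers, and the KRAB domain at its other end recruits TRIM28 (KAP1), which brings in the histone methyltransferase SETDB1 and HP1 proteins to form repressive chromatin. Many members silence families of retroelements, and many have near relatives as neighbours. ZNF genes without a KRAB domain have other partners and often lie among unrelated genes.

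The libraries held between 20301396 and 26712816 estimated counts, and the markers of the cell line differed between the genotypes. PIK3R2 itself, which also lies on chromosome 19, had 524.1, 169.3 and 313.0 counts in parental and 503.2, 476.0 and 124.5 in p85β KR-AA libraries. The levels overlapped (log2 fold change -0.93 ± 0.42 SE, edgeR adjusted p = 0.0558), and gene counts cannot show the changed codons. Of 14 colonic epithelial markers, 13 were above 1 CPM (counts per 1e6 reads, scaled) in all parental libraries and 10 in all p85β KR-AA libraries. Their summed level was 57372 to 79406 CPM in parental against 8874 to 10366 CPM in p85β KR-AA libraries, of which KRT8, KRT18 and KRT19 made up 98.3% to 98.8% and 92.1% to 93.3%. In all, 7 of the 14 were called lower and 2 higher, CDH1 (97.3 ± 33.7 against 343.8 ± 20.2 CPM, SD, n = 3) and CDH17 (6.60 ± 1.81 against 28.5 ± 1.94 CPM). The summed level of 11 mesenchymal markers was 7.65 to 10.6 CPM in parental and 6312 to 7228 CPM in p85β KR-AA libraries, mostly from FN1 and VIM, while TWIST1 and THY1 had at most 5 counts in any library. The 7 neuronal markers, most of whose sum was TUBB3, gave 521.2 to 609.1 CPM against 337.5 to 361.0 CPM with TMM scaling, but 377.9 to 441.4 against 463.3 to 488.0 per 1e6 total counts, so the order turned with the scaling. NEFL and NEFM had 0 counts in the parental libraries and were called higher. They passed the filter on low counts only through the p85β KR-AA libraries, so these calls follow from it. The other neuronal markers were not called higher. DCX and ELAVL4 had 0 counts in every library, and STMN2 had at most 2 in any. TUBB3 (log2 fold change -1.41) and SYP (-0.63) were fitted lower with TMM scaling and not called. The 4 blood markers summed to at most 0.247 CPM in any library. In bulk RNA, fewer cells of a type and less RNA per cell cannot be told apart. These differences between the genotypes move with every result given here, and their part in those results was not tested.

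More members were detected in p85β KR-AA than in parental libraries. Between 202 and 207 of the 246 members had more than 3 counts in p85β KR-AA libraries, against 141 to 154 in parental libraries. The 2 ranges did not overlap. Over all genes, 15686 to 16002 had more than 3 counts in parental and 18577 to 19380 in p85β KR-AA libraries, so detection was also higher outside the family. A filter on low counts left 178 members for the test. Of these, 77 rose and 15 fell at the thresholds of the study (at least 3-fold, with an adjusted p under 0.01), and 86 passed in neither direction. Among all 16059 genes tested, 28.6% were called higher and 17.6% lower. The median log2 fold change of the tested members was 1.41, beside 0.32 over all tested genes. It was 1.39 when the 9 tested members with 0 counts in every parental library were set at their smallest fold. A member that passed the filter only through the group where it is high had to differ, so the counts and medians over tested members describe them and are no test of the family.

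These figures depended on how the libraries were scaled. The main fit used TMM scaling (trimmed mean of M values). Scaled by library totals instead, the median over all tested genes moved from 0.32 to 1.241, and 123 members were called higher and 8 lower, where 43.9% and 6.06% of all genes were. All 77 members called higher remained so with library totals, as did 8 of the 15 called lower. With offsets for transcript length and GC content, which remove any relation of expression to those properties whatever its source, 22 members were called higher and 11 lower, where 13.7% and 10.5% of all genes were. The median of the tested members was then -0.07, and that of all tested genes -0.07. All 22 were among the 77, of which 12 had a fitted change below 0 with the offsets, and 2 of the 11 were among the 15. The sign of the family's median therefore flipped with the offsets, and the 12.4% called higher and 6.18% called lower did not exceed the shares of all genes.

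**Figure D1:**
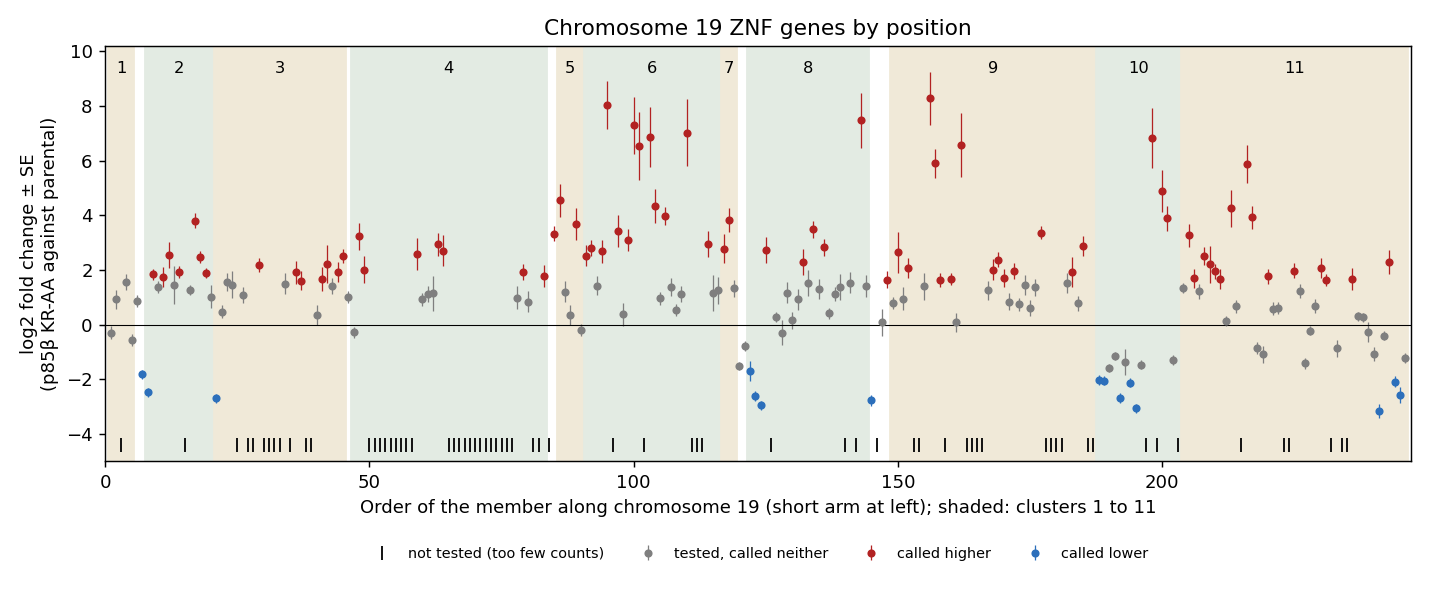
Each tested member is a point at its log2 fold change (p85β KR-AA against parental, TMM scaling) with the standard error as a bar, in order along chromosome 19, with clusters 1 to 11 shaded and the 68 members that were not tested as ticks at the bottom. Fitted values of the 9 tested members at 0 counts in parental libraries depend on the prior count. Members called higher (red, 77) lie in 10 of the 11 clusters, members called lower (blue, 15) sit mainly in clusters 8, 10 and 11, and the ticks crowd in cluster 4.

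With TMM scaling, the summed levels of members with and without a KRAB domain went in opposite directions. A pattern of conserved residues of the KRAB A box was found in the predicted proteins of 204 of the 245 members that could be scored, and such a pattern can miss diverged domains. The summed level of these 204 genes was 330.6, 361.6 and 356.5 CPM in parental and 645.1, 663.3 and 572.9 CPM in p85β KR-AA libraries. The 41 members without the pattern summed to 925.0, 1058 and 841.4 CPM in parental and 301.0, 298.5 and 281.6 CPM in p85β KR-AA libraries. The libraries of the 2 genotypes did not overlap in either sum. Both orders also held per 1e6 total counts, where the KRAB members summed to 239.5 to 276.8 in parental libraries against 774.6 to 933.7, and the members without the pattern to 653.4 to 715.7 against 380.7 to 420.2. The sum over all 246 members flipped, from 1210 to 1431 CPM in parental against 869.4 to 976.9 CPM in p85β KR-AA libraries with TMM scaling, to 918.2 to 968.1 against 1175 to 1375 per 1e6 total counts. Of 142 tested KRAB members, 65 rose and 2 fell, and of 35 tested members without the pattern, 12 rose and 13 fell, where 28.6% of all tested genes were called higher and 17.6% lower. With library totals the members without the pattern had 14 higher and 7 lower calls, and the KRAB members 109 and 1. Of all tested genes, 43.9% were called higher and 6.06% lower with that scaling, so more higher than lower calls was the general direction. With the length and GC offsets, 18 KRAB members were called higher and 10 lower, and 4 and 1 of the others, and the medians were -0.09 and -0.01. The shares of all genes were then 13.7% higher and 10.5% lower. The summed fall of the members without the pattern came largely from a few abundant genes such as ZNF787.

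**Figure D2:**
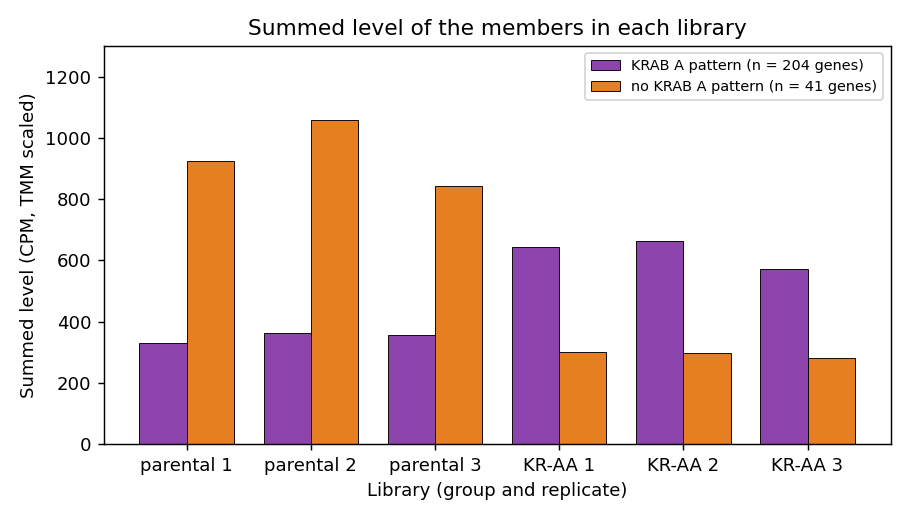
Bars give the summed level in CPM (TMM scaling) of the 204 members with the KRAB A pattern and the 41 without it in each of the 6 libraries. The KRAB sum is 330.6 to 361.6 CPM in parental and 572.9 to 663.3 CPM in p85β KR-AA libraries, and the other sum is 841.4 to 1058 against 281.6 to 301.0 CPM.

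The members that rose and those that fell also differed in base composition. The median GC content of the transcripts was 41.4% in the 77 members that rose and 64.9% in the 15 that fell, and the lowest GC content among those that fell, 51.5%, lay above the highest among those that rose, 49.2%. Across the 178 tested members, the log2 fold change and the GC content had a Pearson correlation of -0.67 and a Spearman correlation of -0.59. Across the 15724 other tested genes, the values were -0.48 and -0.58. All points share the same 6 libraries, and genes are not independent replicates. In the GC classes below 40%, 40 to 45% and 45 to 50%, 62.2%, 51.3% and 36.0% of the tested members were called higher, beside 55.2%, 47.8% and 32.6% of the other tested genes. At 60% and above, 63.2% of 19 members and 46.4% of 2688 other genes were called lower, and no member was called higher. The median log2 fold change of members at 60% and above was -2.02, beside -1.46 for the other genes. Members that rose had a median of 13 zinc fingers and a median length of 4090 bases, and those that fell 6 fingers and 2154 bases.

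**Figure D3:**
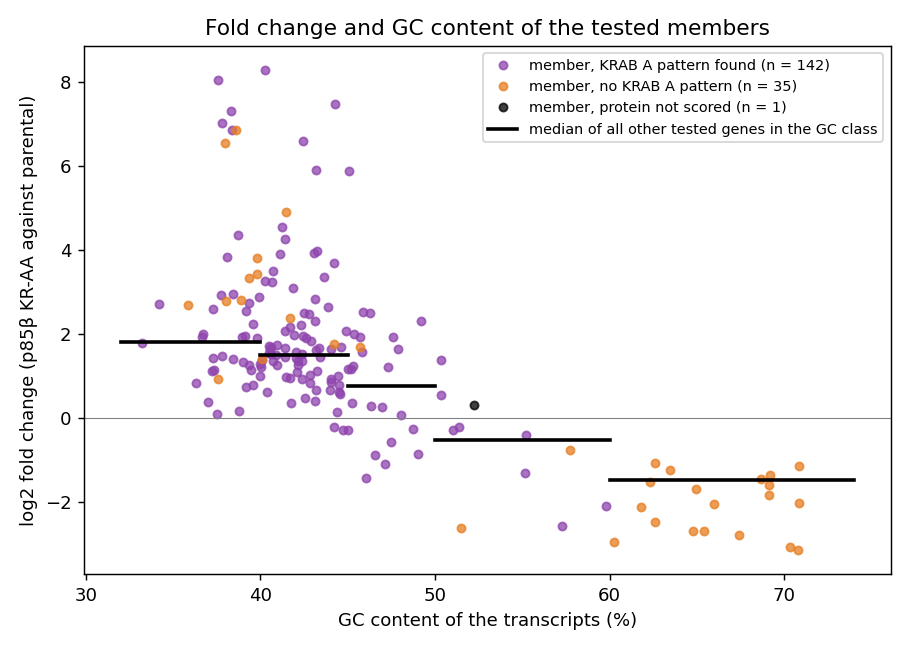
Each point is a tested member, with the GC content of its transcripts on the x axis and its log2 fold change on the y axis, coloured by the KRAB A pattern. Black bars give the median of the other tested genes in each GC class, which runs from 1.80 below 40% to -1.46 at 60% and above, and the members go down with GC content in the same way.

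Some members had no or nearly no counts in parental cells and clear counts in p85β KR-AA cells. In 50 members, every parental library had 0 counts. Of these, 32 had at most 3 counts in every p85β KR-AA library as well, and 15 had more than 3 in each of the 3. Of the 15, 9 passed the filter. They passed it only through the p85β KR-AA libraries, so their calls as higher follow from the selection and are no separate evidence. Under a stricter rule, below 0.1 CPM in all parental and above 1 CPM in all p85β KR-AA libraries, 4 of the 246 members switched, beside 1.32% of all protein-coding genes. They were ZNF529, ZNF432, ZNF841 and ZNF549.

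ZNF432 (ENSG00000256087) had 0, 0 and 0 counts in parental and 73.7, 54.0 and 31.2 in p85β KR-AA libraries. The gene lies on the minus strand at chr19:52534631-52598991 (GRCh37 positions of the annotation). Its mean level of 1.68 ± 0.48 CPM (SD, n = 3) was at least 7.67-fold higher than the 0.218 CPM that 3 counts would give in a parental library. Its neighbour ZNF841 (ENSG00000197608), at chr19:52567718-52599018 on the same strand, overlaps it and had 1, 1 and 0 counts against 112.3, 90.0 and 75.8, a ratio of 67.4 (exact 95% interval for counting error 18.5 to 559). Both rose at once, and reads from the stretch that both genes cover may not be assigned with certainty. Whether the genes share exons was not examined.

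ZNF529 (ENSG00000186020), at chr19:37025676-37096178 on the minus strand, had 0, 0 and 0 counts against 57, 39 and 38, at least 6.56-fold higher. ZNF549 (ENSG00000121406), at chr19:58038693-58068910 on the plus strand, had 0, 0 and 1.46 counts against 49.1, 47.0 and 53.0. It rose beside ZNF550, which overlaps it on the other strand and had 1, 2 and 5 counts against 95, 87 and 74. The library kit does not mark strand as far as the labels say, so reads from overlapping stretches of such a pair cannot be told apart. These 4 genes were chosen by their levels in both genotypes, so their values are a description and no test is given.

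Promoters of these 4 genes are given here beside those of ZNF667, which stayed at 0 counts in all 6 libraries, and of ZNF787, which fell, so that the start sites of genes with different behaviour can be compared. Each is 300 bases, from 250 before to 50 after the RefSeq start on GRCh38.p14, 5′ to 3′ on the strand of the gene, with capitals for CCGGAAG on either strand, a motif of ETS factors.
ZNF529, chr19:36605208-36605507, minus strand: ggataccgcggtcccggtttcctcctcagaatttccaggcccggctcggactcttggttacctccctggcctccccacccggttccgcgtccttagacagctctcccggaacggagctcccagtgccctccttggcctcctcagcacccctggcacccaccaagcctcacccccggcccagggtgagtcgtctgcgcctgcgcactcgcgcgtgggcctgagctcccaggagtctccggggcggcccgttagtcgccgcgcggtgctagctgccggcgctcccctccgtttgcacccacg
ZNF432, chr19:52048789-52049088, minus strand: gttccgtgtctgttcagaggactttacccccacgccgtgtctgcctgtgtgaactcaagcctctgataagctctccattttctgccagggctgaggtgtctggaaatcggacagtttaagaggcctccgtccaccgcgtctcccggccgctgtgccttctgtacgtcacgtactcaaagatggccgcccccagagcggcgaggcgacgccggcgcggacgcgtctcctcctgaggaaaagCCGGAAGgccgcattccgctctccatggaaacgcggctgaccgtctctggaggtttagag
ZNF841, chr19:52095716-52096015, minus strand: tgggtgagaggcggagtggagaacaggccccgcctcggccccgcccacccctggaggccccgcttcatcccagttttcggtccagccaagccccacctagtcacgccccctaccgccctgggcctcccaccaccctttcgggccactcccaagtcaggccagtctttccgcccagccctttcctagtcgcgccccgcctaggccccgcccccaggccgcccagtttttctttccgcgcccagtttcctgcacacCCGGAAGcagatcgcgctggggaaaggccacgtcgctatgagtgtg
ZNF549, chr19:57527106-57527405, plus strand: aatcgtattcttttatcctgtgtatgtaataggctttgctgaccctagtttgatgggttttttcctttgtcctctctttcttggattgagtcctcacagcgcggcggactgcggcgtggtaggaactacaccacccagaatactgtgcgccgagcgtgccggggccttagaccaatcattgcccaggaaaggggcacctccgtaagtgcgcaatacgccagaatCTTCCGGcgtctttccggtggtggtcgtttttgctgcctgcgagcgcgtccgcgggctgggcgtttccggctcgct
ZNF667, chr19:56477296-56477595, minus strand: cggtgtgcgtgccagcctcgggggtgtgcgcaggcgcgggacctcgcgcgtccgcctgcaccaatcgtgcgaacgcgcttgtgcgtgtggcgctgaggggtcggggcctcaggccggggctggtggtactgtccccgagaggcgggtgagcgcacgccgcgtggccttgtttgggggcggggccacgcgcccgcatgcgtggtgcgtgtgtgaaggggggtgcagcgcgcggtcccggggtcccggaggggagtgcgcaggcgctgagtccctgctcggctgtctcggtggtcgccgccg
ZNF787, chr19:56121246-56121545, minus strand: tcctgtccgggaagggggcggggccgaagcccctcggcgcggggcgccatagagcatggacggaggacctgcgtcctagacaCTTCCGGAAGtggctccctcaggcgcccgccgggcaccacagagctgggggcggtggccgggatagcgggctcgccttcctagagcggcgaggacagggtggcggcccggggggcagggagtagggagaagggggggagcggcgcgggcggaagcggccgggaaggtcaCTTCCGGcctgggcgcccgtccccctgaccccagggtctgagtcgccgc

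All 6 windows were rich in CpG. They held 28, 27, 22, 25, 42 and 32 CpG in the order shown, beside a median of 14 over all 35116 RefSeq promoters of this length. Promoters of 216 members were matched by symbol, with a median of 20 CpG. The median was 21 in members called higher, 29 in members called lower and 16 in the 31 matched members with at most 3 counts in every library. CCGGAAG was present in 45.4% of the members' promoters, beside 10.3% of all promoters, 34.3% of those of ZNF genes on other chromosomes and 13.1% of those of the other protein-coding genes of chromosome 19. It was present in 43.9% of the promoters of members called higher, in 33.3% of those called lower and in 48.4% of those with at most 3 counts. The GC box GGGCGG was present in 67.6% of the members' promoters and in 44.95% of all, and CCAAT in 53.7% and 34.6%. TATAAA was present in 1.85% of the members' promoters and in 11.5% of all. Letters were searched on both strands. Of the other motifs searched, ATGGCGG was found in 8.80%, GCGCATG in 5.09%, CACGTG in 4.17% and TGACGTCA in 3.24% of the members' promoters, beside 5.55%, 4.43%, 7.26% and 1.85% of all. CCGGAAG overlaps its own reverse complement where a promoter holds CTTCCGGAAG, as that of ZNF787 does.

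Other members at 0 counts in every parental library passed the filter in clusters 6, 8, 9 and 10. ZNF790 (0, 0 and 0 against 39, 24 and 17 counts) and ZNF345 (0, 0 and 0 against 15, 21 and 10) start head to head and overlap at their 5′ ends. ZNF568, whose mouse counterpart represses a placental transcript of Igf2, had 0, 0 and 0 against 21, 23 and 14 counts, and ZNF569 had 0, 0 and 0 against 22, 31 and 12. All 4 lie in cluster 6. They were chosen for 0 counts in every parental library, so the separation of the genotypes follows from the choice. ZNF229, at the end of cluster 8, had 0, 0 and 0 against 39, 32 and 19 counts, ZNF610 in cluster 9 had 0, 0 and 0 against 20, 18.1 and 10, and ZNF583 in cluster 10 had 0, 0 and 0 against 20, 16 and 21. Their mean levels were at least 2.30-fold (ZNF345) to 4.38-fold (ZNF229) above the floor of 3 parental counts.

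The 22 members called higher under both settings were spread over 7 clusters. Besides those above, ZNF302 had 0, 2 and 2 counts in parental and 101, 69 and 39 in p85β KR-AA libraries. ZNF420, known as a regulator of p53, had 0, 3 and 1 against 91, 53 and 38, and it overlaps ZNF585A on the other strand. Each p85β KR-AA library was above each parental library in all 22, as in all 77 members called higher. This follows largely from the selection by fold and adjusted p and is no separate evidence. In most of the 22, replicate 3 was the lowest of the p85β KR-AA libraries.

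**Figure D4:**
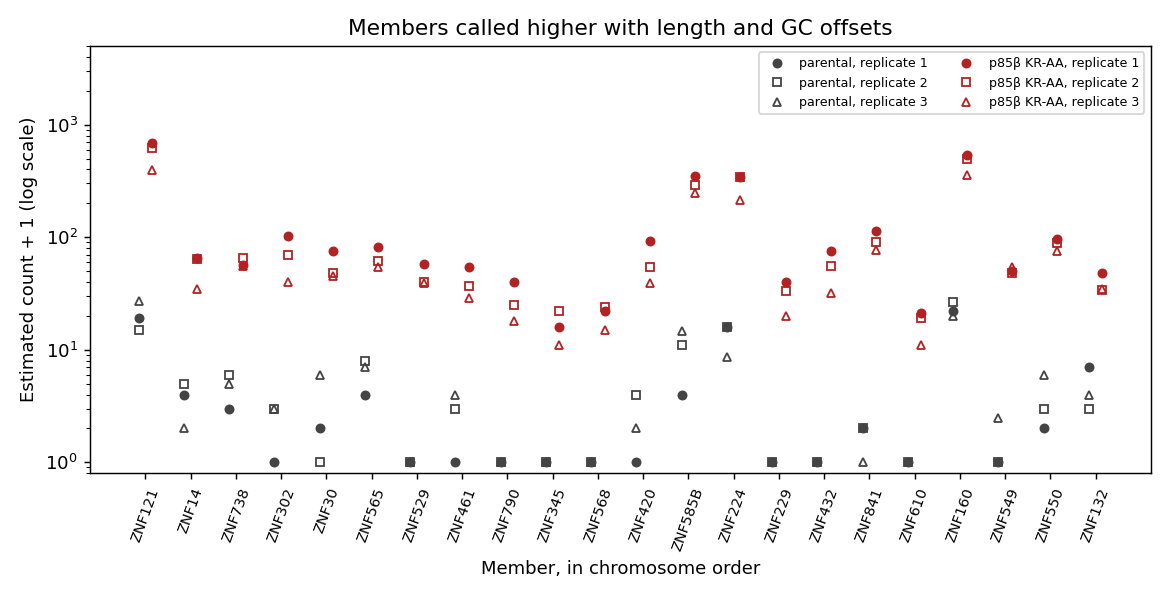
For each of the 22 members called higher with the length and GC offsets, estimated count + 1 in each of the 3 parental (dark grey) and 3 p85β KR-AA (red) libraries is shown on a log scale, in order along the chromosome. Of the 22, 7 lie at a count of 0 in every parental library. No p85β KR-AA library falls among the parental ones, which follows largely from how the 22 were selected.

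ZNF121, a finger protein with no KRAB A pattern here, had the largest change among well expressed members of cluster 2, with 18, 14 and 26 counts in parental and 681, 615 and 392 in p85β KR-AA libraries. These are 1.27 ± 0.30 against 18.1 ± 3.59 CPM (SD, n = 3). The log2 fold change was 3.81 ± 0.26 (SE, adjusted p = 3.37e-08) and of 2.92 with the offsets. ZNF160, the leading gene of cluster 9, had 21, 25.4 and 19 counts against 541, 492 and 356 (log2 fold change 3.36 ± 0.24, adjusted p = 5.38e-08). Both genes share under 3% of their 50-base stretches with other transcripts, at 1.05% and 2.94%.

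The leading genes of clusters 6 and 8 have close relatives next to them. ZNF585B had 3, 10.1 and 13.7 counts in parental and 348.4, 292.0 and 246.4 in p85β KR-AA libraries, and ZNF224, a repressor that binds the WT1 protein, 15, 15 and 7.54 against 340, 341.7 and 212.0. Their log2 fold changes were 3.98 ± 0.34 and 3.495 ± 0.31 (adjusted p = 2.34e-07 and 3.47e-07). Of their 50-base stretches, 26.7% and 48.1% also occur in other transcripts, so the authors' counting could have split reads between them and their relatives. The adjacent ZNF585A had 36, 36.0 and 42.4 counts against 209.1, 154.2 and 105.0, a log2 fold change of 0.97 that did not reach 3-fold, and with the offsets it was called lower (-1.84). Values for this pair are uncertain for that reason. In all, 74 of the 246 members shared over 10% of their 50-base stretches, and the 172 others gave 55 of the 77 higher and 10 of the 15 lower calls.

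With TMM scaling, the members that fell were nearly all of another kind. Of the 15, 13 lacked the KRAB A pattern, and in parental cells they were among the most abundant members. With the length and GC offsets this turned, and 10 of the 11 members called lower had the pattern. Per kb of transcript, ZNF428, ZNF787 and ZNF581 led the members in parental cells at 140.3, 115.4 and 67.6 CPM per kb, and they also led in p85β KR-AA cells, at 18.2, 13.8 and 15.6 CPM per kb. ZNF787 had 3371, 3678 and 2919 counts in parental and 1038, 705.5 and 756 in p85β KR-AA libraries. Its mean level went from 223.9 ± 43.9 CPM to 26.8 ± 1.99 CPM (SD, n = 3). Its log2 fold change was -3.06 ± 0.17 (SE, adjusted p = 7.73e-09).

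ZNF428, with a single finger by the pattern used, had 1536, 1993 and 1635 counts against 528.0, 433.8 and 426.4 (log2 fold change -2.95 ± 0.17, adjusted p = 1.08e-08). ZNF837 had the largest fall, from 154, 141 and 132 to 41, 22 and 37 counts (-3.14 ± 0.26, adjusted p = 1.63e-07). ZNF428, ZNF837, ZNF787 above, and ZNF296, ZNF653, ZNF784, ZNF576 and ZNF324 below were all chosen by the size of their fall. The distance between the groups in these genes therefore follows from the choice. ZNF296, a factor studied in pluripotent cells, had 263, 263 and 287 against 93, 79 and 73 counts, ZNF653 597, 590.6 and 567 against 219, 188 and 155, and ZNF784 397, 378 and 390 against 135, 118 and 120. Their log2 fold changes were between -2.77 and -2.68 with TMM scaling and between -1.84 and -1.75 with library totals. With the length and GC offsets they were -0.72, -1.04 and -0.996, and these 3 genes, ZNF787, ZNF428 and ZNF837 were not called.

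ZNF576 and ZNF324 fell under every one of these settings. ZNF576, at chr19:44100544-44105309 on the plus strand, had 546, 679 and 544 counts in parental and 207, 201 and 187.9 in p85β KR-AA libraries, with a log2 fold change of -2.61 ± 0.19 (adjusted p = 7.37e-08), -2.55 with the offsets and -1.68 with library totals. ZNF324, one of the 2 KRAB members that fell, had 586.7, 441.8 and 478.3 against 302.6, 88.3 and 155.4 (-2.56 ± 0.29, adjusted p = 3.23e-06). It shares 37.6% of its 50-base stretches with other transcripts, and its neighbour ZNF324B, the other KRAB member that fell, had 328.2, 260.2 and 279.99 against 172.2, 118.3 and 134.8 counts.

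Along the chromosome, runs of at least 3 members with gaps of at most 500 kb formed 11 clusters that held 235 members, and 11 were scattered. In 9 clusters more members were called higher than lower, 1 had more called lower, and cluster 1, with 4 of 5 members tested, had no call. Among all tested genes, 28.6% were called higher and 17.6% lower, so more higher than lower calls is also the direction over all genes. With the length and GC offsets, 4 clusters had more higher than lower calls, where 13.7% and 10.5% of all genes were called.

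Cluster 6, from ZNF565 to ZNF573, spanned 1635 kb and had the highest median log2 fold change, 2.82, with cluster 7 close behind at 2.79. Of its 26 members, 21 were tested and 13 rose, and none fell. The median GC content of its members was 39.2%. Of the other tested genes below 40%, 55.2% were called higher. Its summed level was 16.3, 23.0 and 19.9 CPM in parental and 87.1, 85.8 and 60.3 CPM in p85β KR-AA libraries. Cluster 6 was the cluster with the highest median with the offsets too (1.11, with 8 members higher and 1 lower). ZNF146, a finger-only protein near its start, had 34, 57 and 65 counts against 1053, 842.4 and 424.7 (log2 fold change 2.82 ± 0.29, adjusted p = 1.58e-06), and 1.11 with the offsets, where it was not called. ZNF382, next to ZNF529, had 0, 0 and 0 against 2.98, 0 and 2 counts and so stayed near 0 inside a stretch of rising genes.

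Cluster 9, from ZNF175 to ZNF331, spanned 2009 kb and held 39 members, of which 26 were tested, 14 rose and none fell (median 1.65, and -0.28 with the offsets, where 4 were called higher). Its summed level was 38.8 to 49.2 CPM in parental and 93.8 to 134.8 CPM in p85β KR-AA libraries. Cluster 7, the smallest, had 2 of 3 members called higher, and the third, ZNF780A, had a log2 fold change of 1.33. With the offsets no member of cluster 7 was called.

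Clusters 2 and 3 on the short arm each had 7 members that rose and 1 that fell, of 12 and 15 tested. In each, the one that fell stood at the edge of the cluster, ZNF414 (498.4, 465 and 446 against 212, 173 and 141 counts) and ZNF653. Cluster 5 had 2 members of 5 that rose and none that fell. Cluster 8 had 5 that rose and 3 that fell of 20 tested, and the 3 that fell, ZNF575, ZNF576 and ZNF428, are its first members. Cluster 11, the last, had 15 that rose and 3 that fell of 37 tested, with the 3 falls (ZNF837, ZNF324B and ZNF324) among its last 6 members. With the length and GC offsets, clusters 2, 3, 5, 8 and 11 had 1, 0, 2, 2 and 3 higher calls. Lower calls were 0, 0, 0, 2 and 5 in the same order, so cluster 11 then had more lower than higher calls.

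With TMM scaling, cluster 10, from ZNF628 to ZNF835, went the other way, with 3 members that rose and 5 that fell of 13 tested. Its median log2 fold change was -1.46, and -0.53 with library totals. With the offsets it was 0.03, and no member of the cluster was called. Its summed level was 472.1 to 606.9 CPM in parental and 114.6 to 124.9 CPM in p85β KR-AA libraries. The median GC content of its members was 63.3%, against 37.2% to 45.8% in the other clusters. Of the other tested genes with a GC content of 60% and above, 46.4% were called lower. The first 9 members of cluster 10, up to ZNF444, lack the KRAB A pattern, and none of them rose. The 3 that rose, ZNF583, ZNF471 and ZNF470, lie further on between ZNF582 and ZNF71, on either side of the silent ZNF667.

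Cluster 4, from ZNF101 to ZNF254, spans 4533 kb and was the least detected. Of its 37 members, 13 were tested, 7 rose and none fell, and 21 had at most 3 counts in every library. With the length and GC offsets, 2 were called higher and 2 lower (median -0.39). An unbroken run of 8 members from ZNF253 to ZNF66 had 6 counts over all 6 libraries together, and another of 11 members from ZNF43 to ZNF730 had 10. These runs span 1.02 and 1.34 Mb. Between and beside these runs, ZNF430, ZNF738, ZNF493 and ZNF91 rose. Differences in the silent members were not detectable at this depth, where 3 counts are worth 0.0818 to 0.218 CPM.

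**Figure D5:**
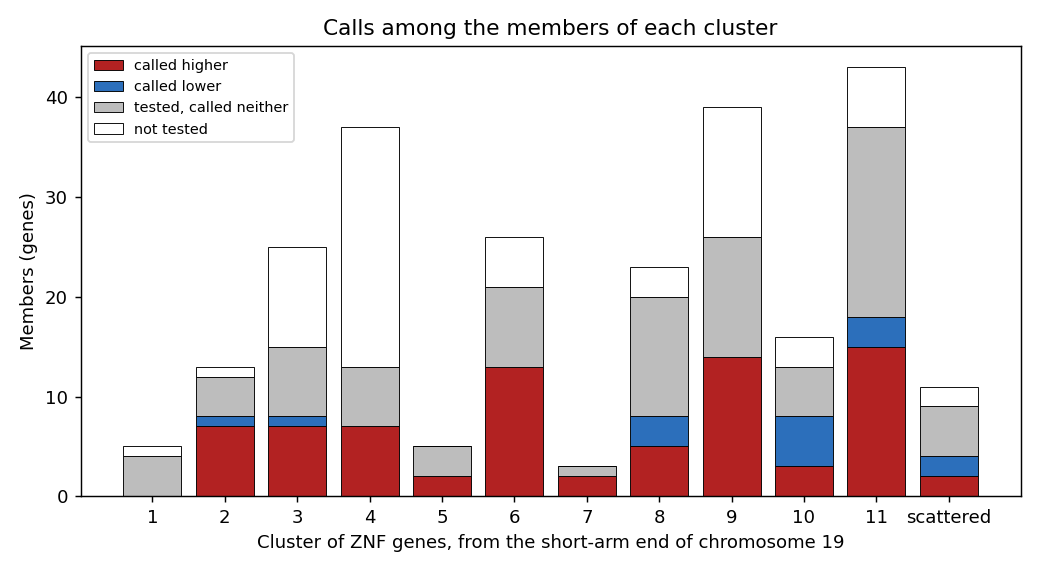
Stacked bars give the number of members of each cluster, and of the 11 scattered members, that were called higher, called lower, called neither or not tested (TMM scaling, fold of at least 3, adjusted p under 0.01). Clusters 1, 4, 5, 6, 7 and 9 hold no member called lower, cluster 10 holds more lower (5) than higher (3), and 24 of the 37 members of cluster 4 were not tested.

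Among 18 members with known roles in retroelement control or in tumours, 7 were tested, 4 rose (ZNF91, ZNF224, ZNF146 and ZNF420) and none fell, where 28.6% of all tested genes were called higher and 17.6% lower. With the length and GC offsets, ZNF91 and ZNF146 were not called. ZNF91, which represses SVA retrotransposons, had 16, 8 and 16 counts in parental and 128, 109 and 77.8 in p85β KR-AA libraries (log2 fold change 1.93 ± 0.30, adjusted p = 6.91e-05), but -0.39 with the length and GC offsets. ZNF93, which represses LINE-1 elements, had 0 counts in all 6 libraries. ZNF274, which binds the 3′ ends of ZNF genes and recruits SETDB1 there, had 175, 158 and 200 against 514, 436 and 408 counts, with a log2 fold change of 0.31 ± 0.16 (adjusted p = 0.0898).

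ZNF675 had 10, 19 and 11 against 63, 59.0 and 29.0 counts (log2 fold change 0.84, adjusted p = 0.0636) and ZNF649 4, 9 and 9 against 29, 34 and 25 (0.96, adjusted p = 0.0473), and neither reached the thresholds. The others were not tested. ZNF350, a partner of BRCA1, had 2, 2 and 4 counts against 31, 21 and 9, and ZNF154, a gene often methylated in tumours, had 0, 0 and 0 against 10.02, 4 and 7. ZNF331, ZNF382, ZNF671, ZNF677, ZNF667, ZNF582, ZNF43 and ZNF85, several of which are known to be methylated in tumours, had at most 1 count in any parental and at most 4 in any p85β KR-AA library.

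Genes of KRAB repression and related chromatin factors did not move as one. TRIM28 itself, whose gene lies just beyond cluster 11 at chr19:59055431-59062089, fell from 24723, 20454 and 22046 to 11178, 8262 and 9710 counts. The parental level was 1497 ± 141 CPM and the p85β KR-AA level 315.5 ± 34.3 CPM (SD, n = 3). Its log2 fold change was -2.25 ± 0.14 (SE, adjusted p = 1.62e-08), which became -1.32 with library totals and -1.13 with the length and GC offsets, below the 3-fold threshold in both. SETDB1 had 320.9, 239 and 317.7 against 1055, 791.5 and 866.6 counts, with a log2 fold change of 0.59 ± 0.15 (adjusted p = 0.0033) that did not reach 3-fold.

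Of 27 genes of KRAB repression and related chromatin factors, 8 rose and 3 fell, where 28.6% and 17.6% of all tested genes did. Besides TRIM28, the histone methyltransferases EHMT2 (5132, 4016 and 4242 against 2350, 1699 and 1929 counts) and SUV39H1 (989.5, 774.2 and 855.6 against 494, 377 and 382) fell, with log2 fold changes of -2.21 and -2.11. The HP1 protein CBX5 rose from 297.2, 221.0 and 356.4 to 3858, 3281 and 2882 counts (log2 fold change 2.49), while its relatives CBX1 (0.91) and CBX3 (-0.11) were not called.

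SMARCAD1, a chromatin remodeller, had 7, 10 and 7 against 332, 268 and 149 counts (3.88), and ATRX, another remodeller, 31, 24 and 28 against 853, 716 and 412 (3.51). ATF7IP, the partner of SETDB1, TASOR, a subunit of the HUSH complex, SUV39H2 and the TRIM28 relatives TRIM24 and TRIM33 also rose, with log2 fold changes of 3.11, 2.42, 2.25, 2.61 and 2.83. All passed with an edgeR adjusted p of at most 3.29e-05. With the length and GC offsets only SMARCAD1 was called higher (1.75), and EHMT2 (-1.63) and HDAC2 (-1.91) were called lower. Of all genes, 13.7% were called higher and 10.5% lower with these offsets. With library totals 14 of the 27 were called higher and none lower, where 43.9% and 6.06% of all genes were.

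Other gene groups were set beside the members. Of the 262 ZNF genes named by the same pattern on other chromosomes, 224 were tested, 83 rose and 17 fell, with a median log2 fold change of 1.09, beside 1.41 in the members. With the offsets the medians were 0.11 and -0.07, and 8.93% of these ZNF genes were called higher, where 13.7% of all genes were. Of the 1224 other protein-coding genes of chromosome 19, 834 were tested, 37 rose and 426 fell, with a median of -1.64 and a median GC content of 61.1%, beside 42.6% in the tested members. With the offsets the median was -0.39, with 53 called higher and 71 lower. Of the 31 tested genes of other kinds that lie inside the ZNF clusters, 3 rose and 8 fell (median -0.42). These 31 had a median GC content of 55.9%, and with the offsets 4 were called higher and 1 lower (median 0.05). Over all tested genes, 28.6% were called higher and 17.6% lower without the offsets.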

How the data were processed

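RNA of DLD1 parental and p85β KR-AA cells was sequenced in 3 libraries each, from TruSeq RNA libraries that are not stated to keep strand. According to the submitters' processing notes, HISAT2 2.1.0, RSEM 1.3.1, DESeq2 1.24.0 and the build hg18 were used. Estimated counts, one value for each Ensembl gene and library and not normalized, were deposited by the authors with a gene length, and every column was used. Totals were 20301396 to 26712816 counts, so that 1 count was worth 0.0273 to 0.0728 CPM. The estimated counts were rounded before the test.

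Symbols, types and positions came from the GRCh37 lift of GENCODE 44 through the Ensembl identifiers, which matched 56745 of 58884 genes, and are not of the build behind the counts. Libraries were grouped by their labels. No source says whether the libraries of a genotype came from separate cultures, so p-values measure the spread between libraries, which may be technical. Differential expression was computed over all genes in R 4.3.3 by edgeR 4.0.16 (filterByExpr at 10 counts and 15 in total, TMM, quasi-likelihood F test, Benjamini-Hochberg adjustment, no covariate), and calls needed a fold of at least 3 and an adjusted p under 0.01. CPM values use TMM library sizes. Standard errors came from the fold change and the F statistic. A fold against a group at 0 counts is given against 3 counts in 1 parental library, and ratios with 1 or 2 parental counts carry an exact 95% interval, which covers counting error only. The code was tested on simulated data.

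Zinc fingers and the KRAB A box were found by residue patterns in proteins translated from the annotation, and proteins under 150 residues were not scored. Promoters came from RefSeq (GRCh38.p14). GC and length offsets were robust splines with 5 degrees of freedom (MASS), fitted per library. Alternatives were DESeq2 1.42.0, library totals, other filters, thresholds and cluster gaps, the replicate block, each library left out, and members with few shared 50-base stretches.

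Named genes were, in each cluster, the called member with the largest absolute change and an average log2 CPM of at least 2, the 8 largest falls, the members silent in parental and on in p85β KR-AA cells, a list of 18, and TRIM28, SETDB1 and the called cofactors. Others were named after their values were seen. The members and lists were chosen with earlier results of these data known. Summaries and figures were made in Python 3.11.15 with pandas 2.3.3, SciPy 1.17.1 and matplotlib 3.10.9. ChIP-seq and protein data were not analysed here.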

Additional observations from a re-analysis of the deposited data

How the results depend on the processing

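The number of members called higher was 77 and moved to 123 with library totals, 27 with at least 10 counts in every library, which removes members silent in parental cells, 37 with the fold tested against 3, 22 with length and GC offsets and 41 with length offsets. It was 65 with DESeq2 and 90 with no filter. The share of all tested genes called higher also moved, from 28.6% to 43.9% with library totals. That share was 22.8% with at least 10 counts in every library, where 100 members were tested, and 18.5% with the fold tested against 3. With length and GC offsets it was 13.7%, and with length offsets 18.3%. DESeq2 gave 26.2%, and no filter gave 18.2%, where 231 members were tested. The number called lower was 15 and moved to 8 with library totals and 26 with no fold threshold. Over all tested genes the share called lower moved from 17.6% to 6.06% and 32.7% in the same order. Clusters with more higher than lower calls moved from 9 to 4 with length and GC offsets, and were 11 with gaps of 250 kb and 9 with gaps of 1000 kb. With library totals and with length and GC offsets, ZNF genes on other chromosomes called higher moved from 83 to 131 and 20, other protein-coding genes of chromosome 19 called lower from 426 to 181 and 71, those inside the clusters called lower from 8 to 3 and 1, and cofactors called higher from 8 to 14 and 1. Cofactors called lower moved from 3 to 0 with library totals. Under the length and GC offsets the direction of PIK3R2 (0.0110), ZNF91 (-0.39), ZNF675 (-0.41) and ZNF649 (-0.56) was reversed, and 8 of the 19 called genes among those chosen by rule lost their call. The cause of these changes was not tested. The replicate block gave 77 members higher and 15 lower, and changed no call of a gene chosen by rule. For PIK3R2 it gave -1.01, still under 3-fold, with an edgeR adjusted p of 2.10e-05 against 0.0558 in the main fit. Over all genes the replicate block gave 4626 higher and 2827 lower calls, against 4597 and 2825. The deviations of same-numbered libraries correlated at -0.14, 0.12 and -0.04, so the numbers are not treated as a pairing. Leaving out 1 library gave 72 to 86 members higher and 14 to 17 lower, and lost 3 (without p85β KR-AA replicate 3) to 13 (without parental replicate 2) of the 92 calls, with no change of sign. The calls of the genes chosen by rule all stayed, while of others named in the text ZNF575 was lost without p85β KR-AA replicate 1 or 2 and ZNF430 without parental replicate 1. Members with few shared 50-base stretches gave 55 higher and 10 lower calls. Depth limits the 68 members not tested, 16 of which had 0 counts in every p85β KR-AA library.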

Other observations

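Of 18 zinc finger genes of chromosome 19 with other names, 8 were tested, 3 rose and none fell, where 28.6% of all tested genes were called higher and 17.6% lower. ZSCAN18, a SCAN domain gene near the end of the chromosome, had 0, 0 and 0 counts in parental and 147, 102 and 116 in p85β KR-AA libraries, and ZFP28, a KRAB zinc finger gene, 0, 0 and 0 against 77, 40 and 39. ZFP14 had 7, 3 and 3 against 89, 82 and 60 counts. ZSCAN18 and ZFP28 passed the filter only through the p85β KR-AA libraries, so their calls follow from it, and ZFP14 was not called with the length and GC offsets. PEG3, ZIM2, ZIM3 and ZSCAN1 had 0 counts in all 6 libraries. ZFP30, next to members that rose, had 23, 28 and 24 against 89, 86 and 46 counts and a log2 fold change of 0.50 (edgeR adjusted p = 0.144), and it was called lower with the length and GC offsets.

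Long non-coding RNA genes inside the clusters were mostly not detected. Of 171, 21 were tested, 5 rose (23.8%, below the 28.6% of all tested genes) and 1 fell. LINC00665, in cluster 6, had 1, 0 and 0 counts in parental and 93.9, 69.0 and 80.3 in p85β KR-AA libraries, and ZNF790-AS1, antisense to ZNF790, 0, 0 and 0 against 27, 33 and 24.1. Without strand, reads of ZNF790 and its antisense gene cannot be told apart. ZNF788P, 1 of 4 tested ZNF pseudogenes, had 0, 0 and 0 against 16, 12 and 11.98 counts. These genes were chosen after their values were seen.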
